A study of Drosophila melanogaster with 4 samples.

Results

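The regions described here are the stretches of chromosome arms 3L and 2L that were enriched for the protein HP4 within 3 Mb of the centromere-proximal end of each arm. They were taken from the authors' lists of enriched regions as those with a midpoint beyond position 21543557 on 3L or beyond position 20011544 on 2L, in coordinates of FlyBase release 5. This rule uses position only and no measured value. It selected 326 of the 4366 regions of the authors' combined list, 198 on 3L and 128 on 2L. In the lists of the single ChIP libraries it selected 268 of 2703 regions in replicate 1 and 242 of 2674 in replicate 2. No region of any list spanned the position of the cut.

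The material was chromatin of Drosophila melanogaster embryos of the wild-type strain Oregon-R (Oregon-R-modENCODE), staged at 14 to 16 h of development. It was fixed with formaldehyde and immunoprecipitated with the HP4 antibody Q4072 in 2 ChIP libraries. The series also holds 2 input libraries of the same stage and genotype, each labelled as the input for the list of 1 ChIP replicate; how the inputs were used in calling and scoring the regions is not stated. Whole embryos were used, so the regions are an average over all cell types present, and a region held by few cells cannot be told apart from one weakly bound in many.

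HP4 is a chromatin protein that is known as a binding partner of HP1, the protein that reads methylated lysine 9 of histone H3 and packs pericentric heterochromatin. Pericentric heterochromatin flanks the centromeres, is rich in the remains of transposable elements, and still holds active genes, of which light on 2L is a classic example in this fly. The sequenced arms run from gene-rich euchromatin into this heterochromatin at their proximal ends, and further heterochromatic sequence of the same arms is kept in the separate scaffolds 3LHet and 2LHet. Some of the loci that give rise to piRNAs, the small RNAs that silence transposons in the germline, are also known to lie in or beside pericentric sequence. No annotation of release 5 was used here, so no region is assigned to a gene or repeat.

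HP4 regions took up 28.7% and 29.8% of the last 3 Mb of 3L in replicates 1 and 2, and 15.7% and 16.0% of the last 3 Mb of 2L. The means were 29.3% ± 0.752 on 3L and 15.8% ± 0.189 on 2L (SD, n = 2 replicates). Coverage here is the number of bases inside regions divided by the length of the stretch. In both replicates 3L was covered more than 2L, by 13.1 and 13.9 percentage points. The count of regions was also higher on 3L, with 167 and 159 regions in replicates 1 and 2 against 101 and 83 on 2L. The difference in coverage between the arms was many times the spread between replicates. With 2 replicates an exact sign-flip permutation test of paired values cannot go below a two-sided p of 0.5, which is what it gave for every comparison of coverage made here, so these comparisons rest on the size of the difference beside the replicate spread.

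On both arms the regions were gathered in a dense proximal domain that took up only part of the 3 Mb. The label pericentric is used here by position only, and no mark of heterochromatin was measured. The domain was measured in bins of 0.1 Mb counted from the proximal end, as the run of bins that ended where 2 bins in succession were under 20% covered. It was 1.5 Mb long on 3L and 0.8 Mb long on 2L, the same in both replicates. Inside it, HP4 covered 56.4% and 58.0% of the 3L sequence in replicates 1 and 2, and 52.3% and 52.1% of the 2L sequence. The domain held 97.7% ± 0.552 of the covered bases of pericentric 3L and 88.0% ± 1.32 of those of pericentric 2L. The 2 arms differed less inside the domain than over the whole stretch: coverage of 3L minus that of 2L was 4.99 ± 1.31 percentage points inside it and 13.5 ± 0.563 over the 3 Mb. The domains were drawn from these same coverage values, which leaves thin sequence of each arm out. The smaller difference and the high shares of covered bases are therefore partly set by the rule.

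**Figure D1:**
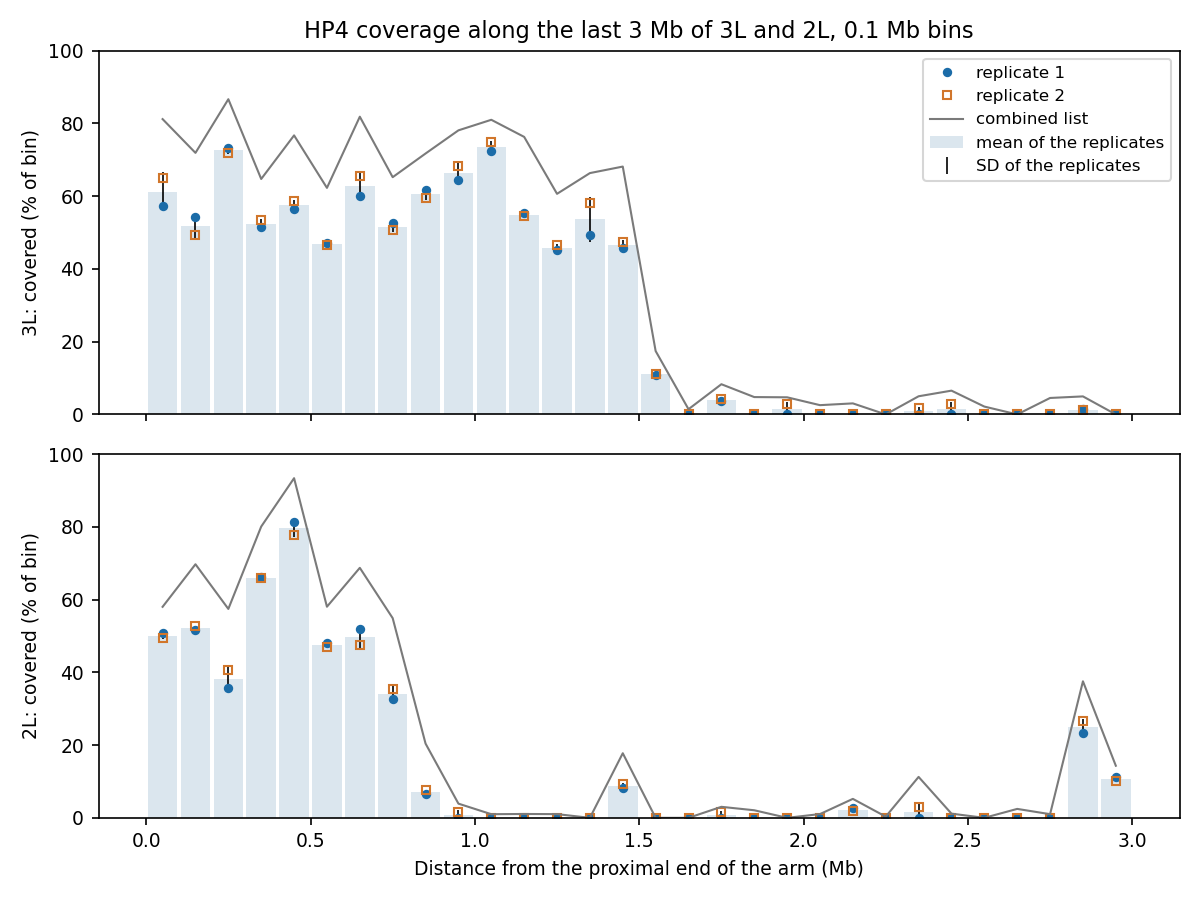
Percentage of each 0.1 Mb bin covered by HP4 regions against the distance from the proximal end of 3L (top) and 2L (bottom). Bars are means of the 2 ChIP replicates with SD, symbols are the single replicates and the grey line is the combined list; the dense domain ends at 1.5 Mb on 3L and 0.8 Mb on 2L, and 2L has a separate block beyond 2.8 Mb.

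The 3L domain was evenly filled. Its 15 bins were covered over 45.1% to 73.4% in replicate 1, with a median of 55.3%, and over 46.5% to 74.8% in replicate 2, with a median of 58.1%. The densest was the bin between 1.0 and 1.1 Mb from the end, at 73.6% ± 1.66, closely followed by the bin between 0.2 and 0.3 Mb at 72.6% ± 1.03, and these 2 do not differ beyond their spread. The least dense was the bin from 1.2 to 1.3 Mb, at 45.8% ± 0.989. In steps of 0.5 Mb from the end outwards, the domain was covered over 58.6%, 57.1% and 53.6% in replicate 1 and over 59.6%, 58.1% and 56.3% in replicate 2, so coverage fell by only a few percentage points towards the outer edge.

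The 2L domain was more uneven. Its 8 bins ran from 32.7% to 81.4% in replicate 1 and from 35.6% to 77.9% in replicate 2. The densest bin of both arms lay here, 0.4 to 0.5 Mb from the end, at 79.7% ± 2.50. The bin from 0.2 to 0.3 Mb was at 38.2% ± 3.48 and the outermost, from 0.7 to 0.8 Mb, at 34.1% ± 2.01. The 2 replicates followed each other bin by bin: the median absolute difference was 1.95 percentage points on 3L and 2.04 on 2L, and the highest was 8.74 and 4.92. As a description over bins of the same libraries, Pearson's r between the replicates was 0.92 over the 15 domain bins of 3L and 0.99 over the 8 of 2L, with Spearman's rho of 0.93 on both arms.

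The outer edge of the domain was abrupt on both arms. On 3L, coverage was 46.5% ± 1.30 in the last bin of the domain, 11.1% ± 0.20 in the next and 0 in both replicates in the one after it. On 2L the values in the corresponding bins were 34.1% ± 2.01, 7.02% ± 0.764 and 0.852% ± 1.20. The outermost regions of the 3L block that both replicates overlapped ran from 23031522 to 23044736 and, 108 bp further in, from 23044845 to 23061725. They scored 1.00 and 1.19 in the combined list, where the score is the authors' own value per region and its scale is not stated. Beyond them lay 249.2 kb, from 22782278 to 23031521, without any region that both replicates overlapped. On 2L the outermost regions that both replicates overlapped in the block ran from 22198285 to 22202362 (score 0.81), from 22205542 to 22210731 (0.65) and from 22212111 to 22214723 (0.67). The stretch without a replicated region beyond them was 638.7 kb long, from 21559632 to 22198284. Within the blocks, replicated regions stood close together, and over the whole 3 Mb the median distance between neighbours was 2862 bp on 3L and 3574 bp on 2L.

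**Figure D2:**
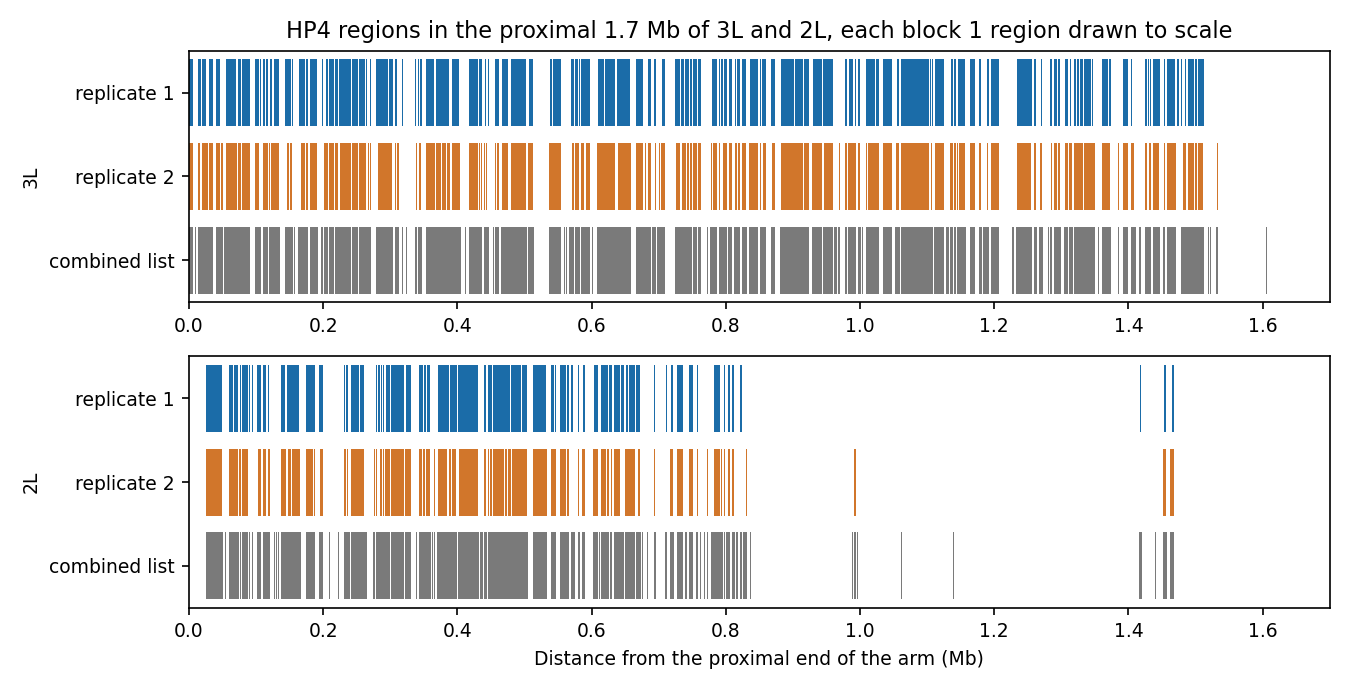
Map of the HP4 regions over the proximal 1.7 Mb of 3L (top) and 2L (bottom), with 1 row each for replicate 1, replicate 2 and the combined list and each region drawn to scale against the distance from the proximal end. The block of 3L reaches the end of the sequence, and on 2L the last 25.5 kb are empty in all 3 lists.

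The domains were not continuous. On 3L, 36.8% of the domain was free of regions in both replicates, in 151 gaps with a median of 2081 bp, of which 11 were at least 10 kb long. On 2L, 42.1% was free, in 71 gaps with a median of 2258 bp, of which 10 were at least 10 kb. The longest gaps of 3L were 25.9 kb from 23309918 to 23335829, 23.8 kb from 24006319 to 24030167 and 18.2 kb from 24206233 to 24224384. The first of these was filled over 24.3% of its length by regions of the combined list, the others over 2.21% and 8.24%. On 2L they were 31.0 kb from 22781087 to 22812072, 25.5 kb from 22986044 to 23011544 and 20.0 kb from 22318869 to 22338905. The 25.5 kb gap is the proximal end of the 2L sequence itself and held no region in the combined list either, whereas on 3L a region ran up to the last bases, from 24540309 to 24543585. That end lies 28 bp past the length given in the file header and was clipped there.

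The ends of the arms can be set beside the Het scaffolds, which hold heterochromatin of the same arms. The 3L domain was covered over 57.2% ± 1.15 and 3LHet over 58.6% ± 0.888. The scaffold was higher in both replicates, at 57.9% and 59.2% against 56.4% and 58.0% in replicates 1 and 2. The 2L domain was covered over 52.2% ± 0.160 and 2LHet over 40.5% ± 1.13. The domains were drawn from these same coverage values, which leaves thin sequence out, whereas the scaffolds were taken whole. The rule thus raises domain coverage, so these values do not rank domains against scaffolds. Median region widths in the domains were 3766.5 ± 6.36 bp on 3L and 3319 ± 575 bp on 2L, against 3577 ± 8.49 bp on 3LHet and 3119 ± 94.8 bp on 2LHet. Scores in the domains were lower than on the scaffolds, with medians of 1.05 ± 0.03 on the 3L domain and 1.01 ± 0.01 on the 2L domain, against 1.13 ± 0.04 on 3LHet and 1.26 ± 0.10 on 2LHet. On both arms the lower of the scaffold values was above the higher of the domain values.

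Set against the remainder of the same arms, the pericentric 3 Mb were far denser. Pericentric 3L was covered over 29.3% ± 0.752 and the rest of 3L over 0.463% ± 0.0643, a ratio of 68.9 in replicate 1 and 58.6 in replicate 2. Pericentric 2L was covered over 15.8% ± 0.189 and the rest of 2L over 0.511% ± 0.00517, a ratio of 30.9 and 31.0. These stretches make up 12.2% of the length of 3L and 13.0% of that of 2L, and held 89.8% ± 1.04 and 82.3% ± 0.0264 of the covered bases. Regions were also wider there, with medians of 3705.5 ± 43.1 bp on pericentric 3L against 1728 ± 47.7 bp on the rest of 3L, and 3139 ± 455 bp on pericentric 2L against 1831 ± 223 bp on the rest of 2L. In the combined list the ratios of coverage were 21.8 on 3L and 13.0 on 2L. That list held 489 regions on the rest of both arms, with a median width of 1204 bp, where the replicates held 97 and 100.

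**Figure D3:**
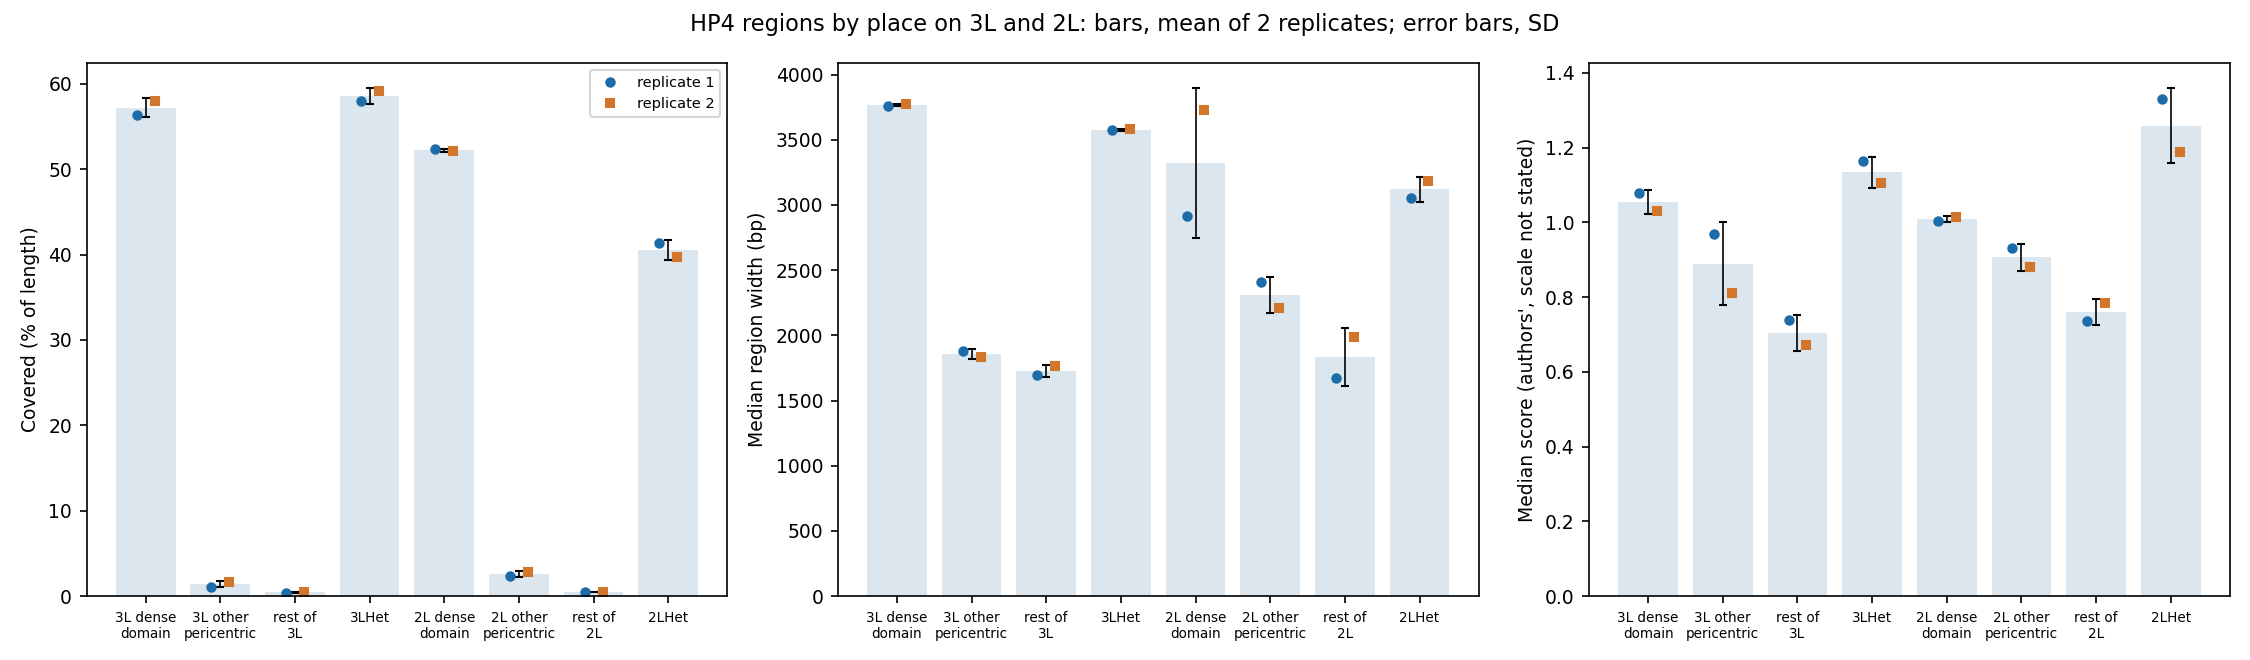
Coverage (left, percent of length), median region width (middle, bp) and median of the authors' score (right, scale not stated) for the dense domain, the other pericentric sequence, the rest of the arm and the Het scaffold of 3L and 2L. Bars are means of the 2 ChIP replicates with SD and points are the replicates. Coverage is 57.2% on the 3L domain and 58.6% on 3LHet, and 52.2% on the 2L domain and 40.5% on 2LHet. The domains were drawn from the same coverage values, whereas the scaffolds were taken whole. Both domains have lower median scores than their scaffolds.

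Beyond the domains the pericentric sequence was thinly covered, and a few sites made up most of what was there. HP4 covered 1.11% and 1.62% of the outer 1.5 Mb of 3L in replicates 1 and 2, and 2.37% and 2.81% of the outer 2.2 Mb of 2L. Of the 38 combined-list regions in the outer part of 3L, 3 were overlapped by both replicates, and of the 45 on 2L, 8 were. On 3L these were the region at the domain edge named above and a pair from 22754347 to 22758565 and from 22780196 to 22782277, with combined scores of 0.93 and 0.43. On 2L they included a pair from 21543663 to 21550220 (score 1.39) and from 21553795 to 21559631 (0.99), at about 1.45 Mb from the end. The bins on either side were empty, and the bin of the pair held no other region that both replicates overlapped. A single narrow region from 20821145 to 20823135 (0.47) was also among the 8.

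The other outer regions of 2L that both replicates overlapped were the 2 at the domain edge and 3 at the far side of the 3 Mb. The widest outer region of 2L was among these: 23.4 kb from 20174744 to 20198097, with a combined score of 1.49. Replicate 1 covered it with 2 regions, from 20176468 to 20183122 and from 20183346 to 20197304, with scores of 1.65 each, and replicate 2 with a single region from 20176561 to 20197942, also with a score of 1.65. The left and right ends thus differed by 93 and 638 bp between the replicates. Its neighbours were a region of 14.8 kb from 20099667 to 20114432 (score 1.10) and one of 3.49 kb from 20114501 to 20117990 (0.80). The stretch of 0.2 Mb that holds these regions carried 34.5 kb and 36.8 kb of covered sequence in replicates 1 and 2, which is 62.8% ± 4.88 of all covered bases of the outer part of 2L. Without it the outer part of 2L was covered over 1.07% ± 0.268. On 3L the bin next to the domain carried 57.4% ± 15.3 of the outer covered bases, and without it the outer part was at 0.366% in replicate 1 and 0.922% in replicate 2 (0.644% ± 0.393). The rest of 3L stood at 0.418% and 0.508% in replicates 1 and 2, so on 3L the remaining outer part was lower than the rest of the arm in replicate 1 and higher in replicate 2. The rest of 2L stood at 0.507% and 0.514%, below the remaining outer part of 2L in both replicates, which was at 0.878% and 1.26%. That remaining part still held the bin next to the 2L domain, with 6.48 kb and 7.56 kb covered in replicates 1 and 2. It also held the bin from 1.4 to 1.5 Mb, with 8.33 kb and 9.34 kb. On 3L the bin next to the domain was left out, so the arms were not trimmed alike and their values are not comparable. Both stretches left out were picked with their values in view.

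The cut falls in thinly covered sequence on 3L and beside the far block of regions on 2L. On 2L the bins just inside it, from 2.8 to 3.0 Mb, were the ones covered over 25.02% ± 2.26 and 10.6% ± 0.669, and the 1 Mb just outside held 0 regions in both replicates. On 3L the 1 Mb just outside held 1 region in replicate 1 and 0 in replicate 2. The combined-list region just inside it on 3L ran from 21663292 to 21664292 and scored 0.53, and the one just outside ran from 21472512 to 21473726 and scored 0.44, neither with a region in a replicate. On 2L the one just inside, from 20084459 to 20086905, scored 0.53 and had a region in replicate 1 (score 0.81). The one just outside, from 19971538 to 19972790, scored 0.47 and had none.

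Wide regions carried most of the covered sequence in the combined list only. There, 40 regions of at least 10 kb held 55.3% of the covered bases of pericentric 3L and 18 held 51.2% on 2L. In replicates 1 and 2 such regions held 38.4% and 43.9% on 3L, and 28.3% and 45.1% on 2L. Among the 437 widest regions of the whole combined list, 64 were pericentric, which is 19.6% of the 326 members where the list as a whole gives 10%. Of the 489 regions on the rest of both arms 0 were among them, the widest there being 7559 bp. On 3LHet and 2LHet together the share was higher, with 80 of 292 regions, or 27.4%, among the 437 widest. By score the pericentric regions did not stand high in the whole list. Of the 326, 12 (3.68%) were among the 437 highest-scoring regions, again against 10%. The rest of both arms had 3 of 489 there (0.613%), and 3LHet and 2LHet together had 18 of 292 (6.16%). In the replicate lists, 69.8% of the pericentric regions of replicate 1 and 69.0% of those of replicate 2 scored below the median of their list.

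The widest pericentric region was on 3L, 44.0 kb from 23438268 to 23482235, with a combined score of 1.54. Replicate 1 covered 95.2% of it with 4 regions and replicate 2 covered 98.4% with 3. It was followed on 3L by regions of 30.2 kb from 24159596 to 24189755 (score 1.25), 25.6 kb from 24039571 to 24065159 (1.08), 22.5 kb from 23287541 to 23310073 (1.86) and 21.6 kb from 24239777 to 24261347 (1.12). The 5 were covered over 86.6% to 98.4% of their length by the regions of the single replicates. The widest on 2L were neighbours in the densest bins, 31.5 kb from 22579508 to 22611017 (1.05) and, 740 bp away, 29.6 kb from 22611758 to 22641403 (0.90). The second of these was the most broken of the named regions, with 5 regions in replicate 1 and 3 in replicate 2. Next came 24.9 kb from 22506785 to 22531636 (1.41), 24.2 kb from 22961824 to 22986040 (1.43), which is also the region nearest the end of 2L, and the 23.4 kb region far from the domain described above. Of the 326 combined-list regions, 63 were split into more than 1 region in replicate 1 and 42 in replicate 2. On 3LHet and 2LHet together 69 and 54 of 292 were split, and on the rest of both arms 1 and 1 of 489. Splitting was thus not particular to the pericentric regions, and it was not counted over the whole list.

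The highest-scoring regions that both replicates overlapped lay on both arms with like values. On 3L the top one ran from 24371012 to 24375962, 0.17 Mb from the end, with a combined score of 2.09 and scores of 1.98 and 2.20 in replicates 1 and 2 (means weighted by the bases overlapped). The others on 3L ran from 23287541 to 23310073 (1.86), from 24452083 to 24471185 (1.703), from 24301393 to 24317793 (1.63) and from 23335742 to 23348620 (1.61). The first and the last of these 4 flank the longest gap of the 3L domain. On 2L the top one ran from 22711611 to 22722711, 0.29 Mb from the end, with a combined score of 1.97 and replicate scores of 1.97 and 1.93. It was followed by regions from 22749721 to 22769657 (1.94), from 22380985 to 22384188 (1.72), from 22259963 to 22266342 (1.61) and from 22478359 to 22498518 (1.58). The 3.20 kb region from 22380985 differed most between the replicates among these 10, with 2.23 in replicate 1 and 1.79 in replicate 2.

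**Figure D4:**
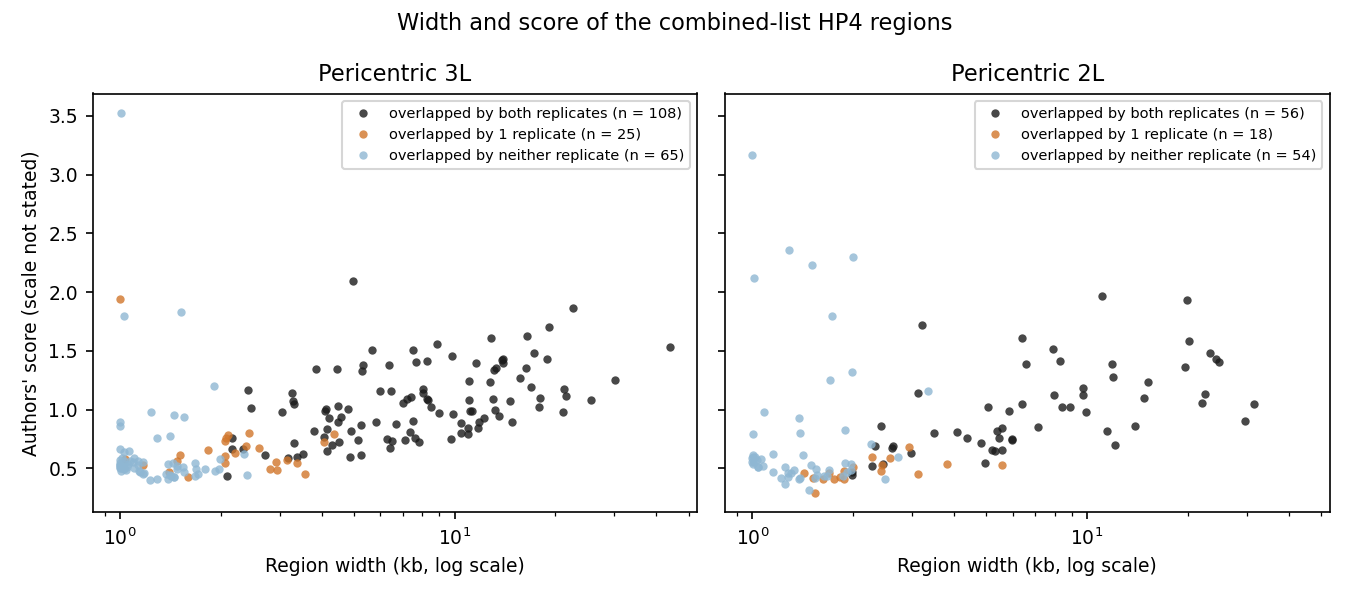
Width (kb, log axis) and authors' score (scale not stated) of each combined-list region of pericentric 3L (left) and 2L (right), coloured by whether both, 1 or neither of the replicates overlapped it. Regions overlapped by both are wide, with medians of 7548 bp on 3L and 6472 bp on 2L, and the scores above 2.1 belong to narrow regions overlapped by neither.

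Both replicates overlapped 164 of the 326 combined-list regions by at least 1 bp, or 50.3% (Wilson 95% interval 44.9% to 55.7%, counting error only). The share was 37.6% over the whole combined list and 68.8% on 3LHet and 2LHet together. Within the pericentric part it was 54.5% on 3L and 43.8% on 2L, with intervals of 47.6% to 61.3% and 35.5% to 52.4% that overlap. Chance overlap is likelier where the replicates cover more sequence, so the share does not measure reliability. Inside the domains 63.0% were overlapped by both, and outside them 13.3%. This contrast is partly set by the rule, because the domains were drawn from the coverage of the same replicates. The 164 regions carried 85.4% of the covered bases of the pericentric regions in the combined list. Over the whole list, regions overlapped by both carried 74.7% of the bases. In width these 164 had a median of 7452 bp and in score one of 1.01. The 119 pericentric regions overlapped by neither (36.5%) carried 9.05% of the pericentric covered bases, and their medians were 1288 bp in width and 0.53 in score. Over the whole list 44.5% of the regions were overlapped by neither and carried 15.1% of the bases. Their medians were much the same, at 1208 bp and 0.575.

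The highest scores of the combined list were not replicated. On 3L the top score, 3.53, belonged to a region of 1009 bp from 23985486 to 23986494. On 2L it was 3.16, in a region of 1001 bp from 22337428 to 22338428. Neither replicate had a region there, and exactly the same scores (tolerance 1e-09) occurred in 9 and 7 regions of the combined list, counting these. All 6 of the highest-scoring pericentric regions of the combined list were of this kind, 1 on 3L and 5 on 2L, with widths of 1001 to 1995 bp, and 5 of the 6 scores recurred elsewhere. Recurring scores were found in 27.9% of the pericentric regions of the combined list, with a median width of 1238 bp, against 38.2% in the list as a whole. The pericentric regions with a score of their own had a median width of 4823 bp. The lists give no read counts, so the depth behind these equal scores is unknown.

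The replicates placed their regions alike. Of the 268 pericentric regions of replicate 1, 241 (89.9%, Wilson 95% interval 85.7% to 93.0%) overlapped a region of replicate 2, where the share of all replicate 1 regions was 82.8%. Of the 242 of replicate 2, 211 (87.2%, 82.4% to 90.8%) overlapped one of replicate 1, where the share of all was 79.7%. On 3LHet and 2LHet together the shares were 91.8% for replicate 1 and 91.3% for replicate 2. The Jaccard index, the bases covered in both replicates divided by the bases covered in either, was 0.80 on pericentric 3L and 0.781 on pericentric 2L, against 0.372 on the rest of 3L and 0.486 on the rest of 2L. It was 0.806 on 3LHet and 0.706 on 2LHet. The index rises with coverage, so these values do not rank the stretches by agreement beyond chance. Replicates 1 and 2 shared 1197 kb of pericentric sequence, with 136.1 kb covered in replicate 1 alone and 176.1 kb in replicate 2 alone.

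For 137 regions that had a single partner on both sides, 95 on 3L and 42 on 2L, edges could be compared. The left edge differed between the replicates by a median of 215 bp on 3L and 413.5 bp on 2L, and the right edge by 236 bp and 289.5 bp. Both edges lay within 500 bp in 78 of the 137 regions. The widths had a Spearman's rho of 0.88 and the scores one of 0.89 over these regions (Pearson's r 0.97 and 0.87), as a description over regions of the same 2 libraries. The median absolute difference of the score was 0.093 on 3L and 0.13 on 2L.

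**Figure D5:**
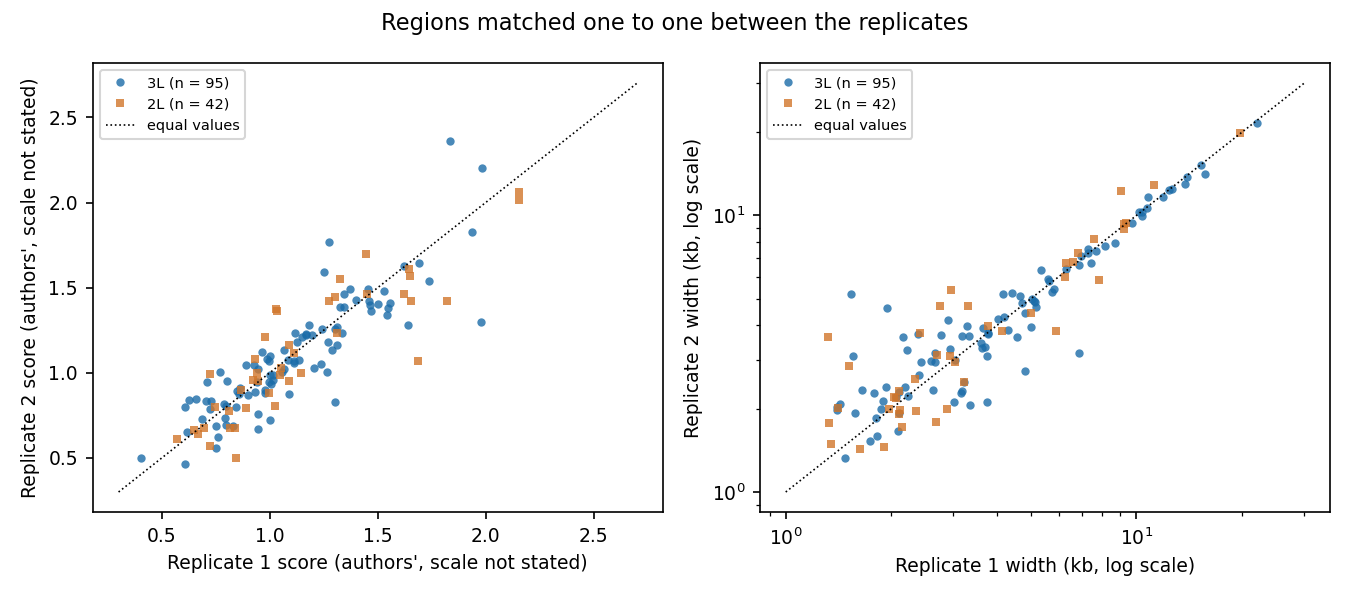
Scores (left, authors' scale not stated) and widths (right, kb, log axes) in replicate 2 against replicate 1 for the 95 regions of 3L and 42 of 2L with a single partner in the other replicate. Points lie along the dotted line of equal values, and the scatter of widths is larger among narrow regions.

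Regions without a partner were narrow. The median was 1635 bp for the 27 of replicate 1 and 1672 bp for the 31 of replicate 2, where regions with a partner had medians of 3753 and 4086 bp, and the widest without a partner was 2990 bp. A few scored high: in replicate 1 the pericentric region with the highest score, 3.81, ran from 23068894 to 23070636 on 3L and had no partner, and neither had the next, from 24096432 to 24098480 (2.62). Each of these 2 scores occurred in 2 regions of the replicate 1 list. On 2L the highest without a partner in replicate 1 were from 22726795 to 22729178 (1.37) and from 22298517 to 22300489 (0.85). In replicate 2 they scored less, with 1.10 from 24492948 to 24495073 and 1.00 from 24515328 to 24517933 on 3L, and 0.80 from 22734878 to 22736339 and 0.77 from 22180257 to 22181841 on 2L. All 8 of these regions overlapped a region of the combined list, as did 267 of the 268 pericentric regions of replicate 1 and all 242 of replicate 2. The same count was not made over the whole replicate lists, so it does not set the pericentric regions apart.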

How the data were processed

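The submitters' processing notes name Bowtie 0.12.7 (a read aligner). How regions were called, with which threshold, and how the replicates were joined is not stated there. What the authors deposited are region lists, 3 in number, namely replicate 1, replicate 2 and combined, in FlyBase release 5 per the file headers, with 1 score per region whose scale is not stated. The lists give no read counts, so depth is unknown. Coordinates are printed as deposited. A start of 0 occurs in 2 lists, so starts may count from 0. The gene table at hand is of release 6 and was not used.

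Lists were read with Python 3.11.15, numpy 2.4.6, pandas 2.3.3 and scipy 1.17.1, and plotted with matplotlib 3.10.9. Overlap means at least 1 shared bp. Domain parts take regions by midpoint. The domain, coverage and overlap routines were tested on simulated lists, and the gap routine was not. Regions named are, for each arm, the 5 highest-scoring and 5 widest that both replicates overlap, those beside the cut and the arm end, the 3 longest gaps, the widest outside the domain and the top 2 without a partner per replicate; the other outer replicated regions, the domain edges and the 6 top scores were picked with their values in view. The members and lists were chosen with earlier results of these data known. The labels do not say whether each replicate was its own embryo collection, and the spread may then be technical.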

Additional observations from a re-analysis of the deposited data

How the results depend on the processing

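Coverage of pericentric 3L was 38.6% in the combined list, 13.6% in the upper 50% by score, 43.7% over the last 2 Mb and 22.0% over the last 4 Mb, and that of 2L was 22.2%, 7.92%, 21.8% and 11.9%, with 16.2% after merging regions up to 1000 bp apart. The upper 50% by score left 49.5 regions on 3L and 28.5 on 2L. The ratio to the rest of the arm was, on 3L, 21.8 in the combined list, 471 in the upper 50%, 96.5 and 46.1 with 2 and 4 Mb and 22.9 for regions per Mb, and on 2L 13.0, 84.1, 32.3, 22.1 and 13.0. The domain difference was 1.75 percentage points in the upper 50%. The partner share was 84.3% with 50% of the region covered, 71.6% with reciprocal overlap of 50% and 82.1% in the upper 50%, where the Jaccard index was 0.686 against 0.793 and both replicates overlapped 83.8% of the combined-list members kept. Combined-list medians were 0.77 and 3344.5 bp on 3L and 0.66 and 2280.5 bp on 2L, and the 2L median score over 2 Mb was 0.99. For each of these changes the cause was not tested. Domain lengths stayed between 1.5 and 1.6 Mb on 3L and between 0.7 and 0.9 Mb on 2L.

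Without replicate 1 or 2 in turn, coverage ran from 28.7% to 29.8% on 3L and from 15.7% to 16.0% on 2L, the counts from 159 to 167 and from 83 to 101, and the domain difference from 4.07 to 5.92 points. Of 38 single-replicate scores of 19 named regions, 19 differed from the combined score by less than the replicate SD. No paired analysis was possible because ChIP and input, the groups that share replicate numbers, were not compared; the paired sign-flip test given above sets stretches of the genome within each ChIP replicate against each other.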
